A study of Arabidopsis thaliana with 24 samples.

Results

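A set of 10 iron deficiency response genes of Arabidopsis thaliana was followed by name and identifier through all 24 RNA-Seq libraries of the series. The 10 members, of 26405 genes listed in any library, were FIT (AT2G28160), bHLH38 (AT3G56970), bHLH39 (AT3G56980), bHLH100 (AT2G41240), bHLH101 (AT5G04150), IMA1 (AT1G47400), MYB72 (AT1G56160), IRT1 (AT4G19690), FRO2 (AT1G01580) and S8H (AT3G12900). All 10 had reads in the files. The rule that names them uses no measured value, but the members were chosen with earlier results of these data known. The plants were wild-type Col-0 diploids (2x) and neo-tetraploids (4x), lines in which the whole genome had been doubled, grown for 2 weeks on agar-solidified Hoagland medium with sucrose and with 0 or 35 mM added NaCl. Roots and shoots were sampled apart, which gave 8 groups of 3 replicate libraries, named here 2x control, 2x NaCl, 4x control and 4x NaCl for each organ. Each replicate held pooled plants of 1 experiment, and all media contained iron as a chelate, so no group was grown without iron. The 4x plants came from lines made earlier by genome doubling and are compared with their diploid progenitor.

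Iron in many soils is poorly available to plants because its ferric form is poorly soluble. Arabidopsis roots release protons and coumarins into the soil, reduce chelated ferric iron at the epidermis with the reductase FRO2, and import ferrous iron with the transporter IRT1. FIT, a basic helix-loop-helix (bHLH) transcription factor, turns on IRT1 and FRO2 when it pairs with a bHLH protein of subgroup Ib, which are bHLH38, bHLH39, bHLH100 and bHLH101. The Ib genes respond to iron shortage in roots and in leaves, and small IMA peptides, of which IMA1 is a member, promote their expression. MYB72 is a transcription factor of the coumarin branch, and S8H is the hydroxylase that makes the coumarin fraxetin.

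The letters before the starts of all 4 Ib genes are shown here because their levels are compared throughout and because bHLH proteins bind E-boxes, DNA with the letters CANNTG. Windows of 250 bases ending at the base before the annotated start were read from the RefSeq assembly TAIR10.1, whose nuclear chromosomes carry the TAIR10 sequence, and capitals mark every CANNTG. The window of bHLH38 is chr3:21085246-21085495, that of bHLH39 is chr3:21087711-21087960, that of bHLH100 is chr2:17199455-17199704 and that of bHLH101 is chr5:1139634-1139883, all on the minus strand and printed in the direction of the gene. bHLH38 and bHLH39 are neighbours on chromosome 3.
bHLH38: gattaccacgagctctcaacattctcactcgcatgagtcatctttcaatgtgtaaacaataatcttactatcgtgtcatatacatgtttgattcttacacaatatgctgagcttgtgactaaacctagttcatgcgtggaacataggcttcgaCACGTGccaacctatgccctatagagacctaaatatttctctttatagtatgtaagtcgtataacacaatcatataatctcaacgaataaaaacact
bHLH39: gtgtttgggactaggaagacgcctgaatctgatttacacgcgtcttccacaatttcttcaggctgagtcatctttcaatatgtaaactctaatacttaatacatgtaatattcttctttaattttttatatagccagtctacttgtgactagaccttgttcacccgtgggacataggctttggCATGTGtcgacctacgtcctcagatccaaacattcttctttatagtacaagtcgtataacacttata
bHLH100: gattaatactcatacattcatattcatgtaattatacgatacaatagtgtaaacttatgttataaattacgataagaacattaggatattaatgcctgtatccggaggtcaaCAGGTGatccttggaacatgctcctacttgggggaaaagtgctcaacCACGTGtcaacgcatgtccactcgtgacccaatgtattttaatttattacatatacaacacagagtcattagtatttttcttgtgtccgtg
bHLH101: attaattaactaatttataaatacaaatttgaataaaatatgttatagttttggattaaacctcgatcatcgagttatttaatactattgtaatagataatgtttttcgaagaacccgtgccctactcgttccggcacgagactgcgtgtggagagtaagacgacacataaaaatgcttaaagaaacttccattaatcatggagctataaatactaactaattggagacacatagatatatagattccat

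The windows of bHLH38 and bHLH100 held the palindrome CACGTG, the G-box and that of bHLH39 held CATGTG. In all, 2 of the 10 members had a CACGTG. Of the 27443 windows of protein-coding genes, 6.49% had one. Any CANNTG, which takes in CACGTG and reads the same on both strands as a pattern, was in 6 of the 10 members' windows and in 55.3% of all windows. The windows of IRT1, FRO2, bHLH101 and MYB72 held none. A match says that these letters are in the window and nothing of binding.

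Depth was even, from 11202503 to 11909554 expected counts in a library (median 11461800). Marker genes of root epidermis and root hair summed to 84.1 to 142 FPKM in roots and to 10.5 to 14.8 in shoots, with all 5 markers counted, and 5 endodermis genes to 146 to 298 against 0.610 to 1.97. The 6 markers of green tissue summed to 63.9 to 242 FPKM in roots and to 39607 to 51276 in shoots, so the organ labels and the markers match. FPKM scales the reads of a gene by its transcript length and by the depth of its library, and levels of different genes are compared on it. A few libraries stood apart in the member genes. The 4x NaCl root replicate 1 had the highest IRT1 of all libraries, and replicate 3 of the 2x control and 2x NaCl shoots had the highest bHLH38, bHLH39 and bHLH101 in shoots, so values without them are given where a printed call or value turns on them.

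Across all 12 root libraries, FIT and IRT1 were abundant and the Ib genes were low. The median over the 12 libraries was 50.6 FPKM for IRT1, 41.5 for FIT, 17.2 for FRO2, 8.34 for S8H, 5.61 for bHLH39, 2.91 for bHLH101, 2.06 for bHLH38, 1.04 for IMA1, 0.795 for bHLH100 and 0.385 for MYB72. The range of each gene over the 12 libraries overlapped that of the next in this order. Within every library FIT lay above FRO2, FRO2 above S8H and bHLH39 above bHLH101. The other neighbours changed places between libraries, so their order is not set. FIT (25.2 to 61.3 FPKM) lay above S8H (2.77 to 19.2) and the Ib genes in every library, and IRT1 (18.1 to 109.9) above the Ib genes, while S8H overlapped bHLH39 (2.91 to 11.4). MYB72 had at most 8 counts in any library and was not tested. A gene was tested where at least 10 counts were found in at least 3 of the libraries fitted. This left 9 members of 20239 genes in roots and 5 members of 19174 genes in shoots. bHLH100 passed in roots on its 2x control libraries and 1 other library, so it was tested because it was high there. The value of IMA1 joins 2 transcripts in the files, AT1G47400.1 and AT1G47405.1. MYB72 overlaps an antisense gene in RefSeq, and the use of strand is not stated, so its few counts are uncertain. RSEM split a small part of the reads of bHLH38 and bHLH39, near-copies of each other, as 47.99 and 108.01 counts in 2x control root replicate 3, and their separate values are uncertain to that extent.

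**Figure D1:**
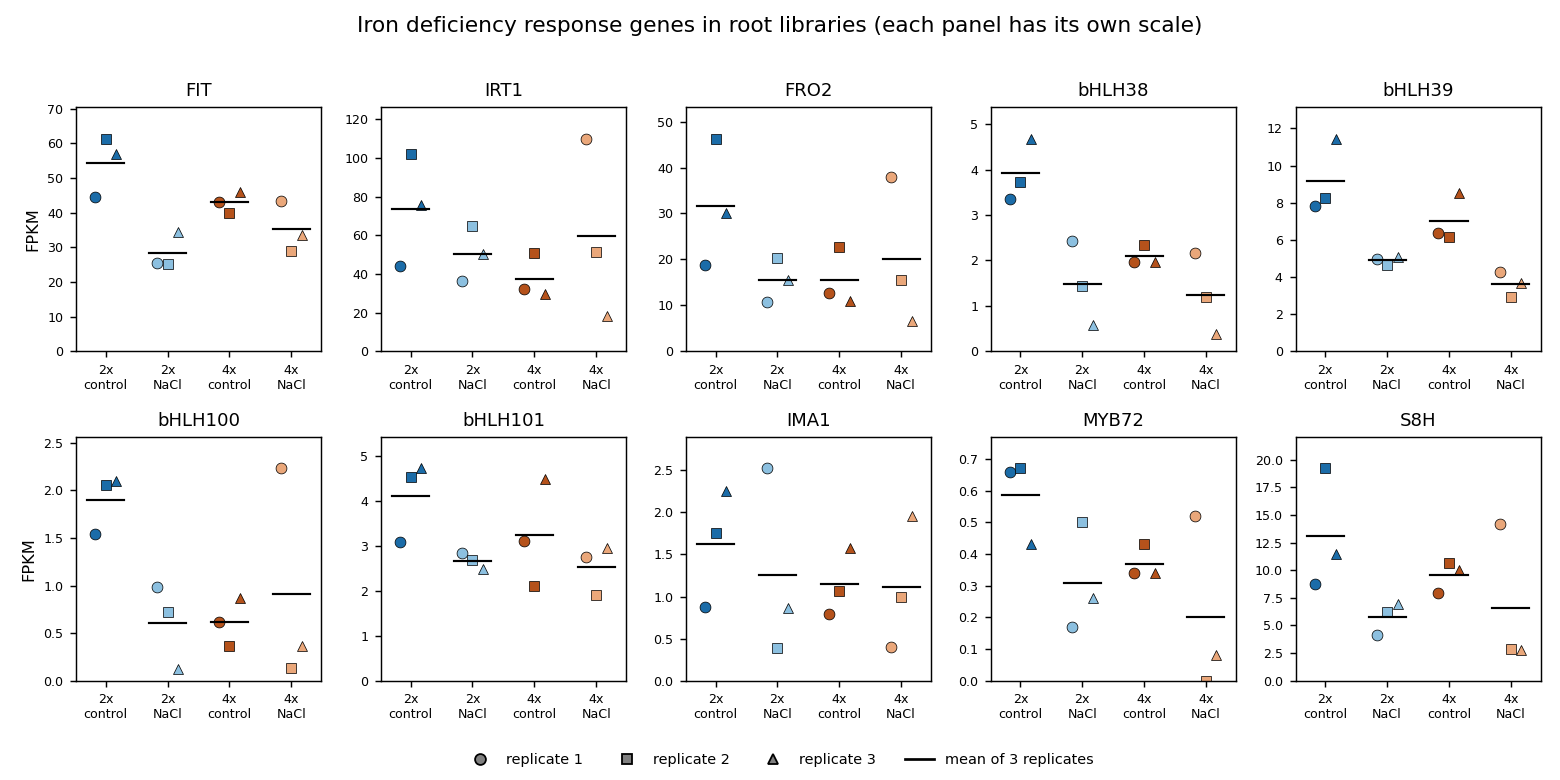
FPKM of the 10 members in the 12 root libraries, with 1 panel per gene, each on its own linear scale from 0; the symbols are replicates 1 to 3 and the bar is the mean of 3 replicates. FIT, bHLH38, bHLH39, bHLH100, bHLH101 and S8H do not overlap between 2x NaCl and 2x control, and the 4x NaCl replicate 1 (circle) is high for IRT1, FRO2, S8H and bHLH100.

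With 35 mM NaCl, FIT fell in 2x roots, and bHLH39 fell in 4x roots, each by about 1 on the log2 scale. FIT, the activator of IRT1 and FRO2, had 44.7, 61.3 and 56.8 FPKM in replicates 1, 2 and 3 of 2x control roots and 25.4, 25.2 and 34.5 in 2x NaCl roots. All 3 NaCl values lay below all 3 control values. FIT fell by 1.01 on the log2 scale (SE 0.18) with an adjusted p of 0.00496 by edgeR's quasi-likelihood test, with Benjamini-Hochberg adjustment over all 20239 genes. In 4x roots FIT had 43.1, 40 and 45.9 FPKM without and 43.5, 28.9 and 33.6 with NaCl, and these groups overlapped. Its log2 fold change there was -0.34 (SE 0.18; adjusted p = 0.306). In bulk RNA, fewer cells of a type and less RNA per cell cannot be told apart.

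bHLH39, a partner of FIT, had 7.81, 8.23 and 11.4 FPKM in 2x control roots and 4.96, 4.66 and 5.06 in 2x NaCl roots. In 4x roots it had 6.37, 6.16 and 8.51 FPKM without NaCl and 4.26, 2.91 and 3.67 with it. All NaCl values of a ploidy lay below its control values. The log2 fold change was -0.98 (SE 0.20; adjusted p = 0.0116) in 2x roots, which is just short of the 2-fold set for a call, and -1.01 (SE 0.22; adjusted p = 0.0164) in 4x roots, which passes it. Averaged over both ploidies the change of bHLH39 was -0.99 (SE 0.15; adjusted p = 0.000678) and that of FIT -0.68 (SE 0.13; adjusted p = 0.00279), both past the p and short of the fold. The 2 ploidies thus fell on different sides of the fold threshold with nearly equal values, and the interaction of bHLH39 was -0.03 (SE 0.29; adjusted p = 0.994).

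bHLH38, the other Ib gene of the same cluster, had 3.36, 3.74 and 4.68 FPKM in 2x control roots, 2.43, 1.43 and 0.580 in 2x NaCl roots, 1.96, 2.35 and 1.96 in 4x control roots and 2.16, 1.19 and 0.390 in 4x NaCl roots. The 2x groups did not overlap and the 4x groups did. The log2 fold change was -1.48 (SE 0.45; adjusted p = 0.0545) in 2x roots and -0.80 (SE 0.49; adjusted p = 0.395) in 4x roots, and averaged over the ploidies bHLH38 fell by 1.14 (SE 0.33; adjusted p = 0.0292). bHLH101 had 3.10, 4.53 and 4.73 FPKM in 2x control roots and 2.85, 2.68 and 2.48 with NaCl, and a log2 fold change of -0.70 (SE 0.29; adjusted p = 0.151). In 4x roots bHLH101 had 3.12, 2.12 and 4.50 FPKM without and 2.75, 1.90 and 2.96 with NaCl, and a change of -0.41 (SE 0.30; adjusted p = 0.501). Neither gene passed in a single ploidy by edgeR without replicate number in the model, while DESeq2 called bHLH38 in 2x roots (-1.50; adjusted p = 0.0231), as did limma on log2(FPKM + 1) (-1.05; adjusted p = 0.0461). With replicate number as a block, edgeR called bHLH38 in 2x roots too.

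bHLH100 and S8H also had lower values with NaCl in 2x roots. bHLH100 had 1.54, 2.06 and 2.10 FPKM in 2x control roots and 0.98, 0.72 and 0.12 in 2x NaCl roots. In 4x roots it had 0.620, 0.370 and 0.870 FPKM without NaCl and 2.23, 0.130 and 0.370 with it, so that replicate 1 with NaCl stood above both others. S8H, which makes fraxetin, had 8.75, 19.2 and 11.5 FPKM in 2x control roots and 4.10, 6.20 and 6.96 in 2x NaCl roots. In 4x roots S8H had 7.92, 10.7 and 10.01 FPKM without and 14.2, 2.85 and 2.77 with NaCl. The log2 fold changes in 2x roots were -1.69 (SE 0.71; adjusted p = 0.150) for bHLH100 and -1.27 (SE 0.50; adjusted p = 0.132) for S8H, and those in 4x roots were 0.49 (SE 0.79; adjusted p = 0.793) and -0.59 (SE 0.51; adjusted p = 0.570). In the 4x NaCl group both genes had 1 high and 2 low libraries.

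IRT1, the iron transporter, had 43.9, 102.1 and 75.5 FPKM in 2x control roots and 36.1, 65.0 and 50.5 in 2x NaCl roots. In 4x roots IRT1 had 32.4, 50.7 and 29.4 FPKM without NaCl and 109.9, 51.1 and 18.1 with it. The 3 libraries of 4x NaCl held both the highest and the lowest IRT1 of all root libraries. FRO2, the ferric reductase of the epidermis, had 18.8, 46.2 and 30 FPKM in 2x control, 10.6, 20.2 and 15.6 in 2x NaCl, 12.7, 22.6 and 10.9 in 4x control and 37.9, 15.4 and 6.63 in 4x NaCl roots. The log2 fold changes with NaCl were -0.63 (SE 0.48; adjusted p = 0.442) in 2x and 0.61 (SE 0.49; adjusted p = 0.535) in 4x roots for IRT1, and -1.12 (SE 0.51; adjusted p = 0.182) and 0.32 (SE 0.51; adjusted p = 0.789) for FRO2. All these groups overlapped. The positive values in 4x roots rest on replicate 1 of 4x NaCl: without it they were -0.18 (adjusted p = 0.884) for IRT1, -0.54 (adjusted p = 0.584) for FRO2 and -1.32 (adjusted p = 0.424) for bHLH100. IMA1 had 0.880, 1.75 and 2.25 FPKM in 2x control and 2.52, 0.390 and 0.860 in 2x NaCl roots, and 0.790, 1.07 and 1.58 in 4x control and 0.400, 1.00 and 1.95 in 4x NaCl roots, at 2 to 14 counts a library. Its groups overlapped, with changes of -0.44 (SE 0.64; adjusted p = 0.715) and -0.13 (SE 0.70; adjusted p = 0.945).

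In all, 1 of the 9 tested members (FIT) was called lower with NaCl in 2x roots, where 1.81% of all genes were, 1 (bHLH39) in 4x roots, where 1.6% were, and 1 (bHLH38) in the average over ploidies, where 2% were. A call was an adjusted p under 0.05 with a fold of at least 2. No member was called higher. At an unadjusted p under 0.05 there were 7 of 9 members in 2x roots, against 25.7% of all genes, 1 in 4x roots, against 20.8%, and 5 in the average, against 32.8%. The median log2 fold change of the tested members was -1.01 in 2x and -0.34 in 4x roots, beside 0.02 and -0.01 for all genes. Groups did not overlap, with NaCl lower, for 6 of 9 members in 2x roots (10.5% of all genes) and 1 in 4x roots (11.7% of all genes). bHLH100 is among the 7 and the 6 members counted in 2x roots. It was tested because it was high in 2x control roots, so the filter favoured its place in both counts. The members were chosen with earlier results of these data known, so their shares beside all genes are a description. Over all genes, 204 were called higher and 366 lower with NaCl in 2x roots, and 261 and 295 when scaled by library size alone. Marker sums in the same libraries were as follows. The 5 epidermis and root hair markers summed to 98.6 to 113 FPKM in 2x control and 84.1 to 91.4 in 2x NaCl roots, and to 124 to 142 and 103 to 126 in 4x roots. COBL9 alone of them passed an adjusted p of 0.05, at -0.69 in 2x and -0.53 in 4x roots. The 5 endodermis markers summed to 193 to 298 and 146 to 172 FPKM in 2x roots, and in 4x roots the NaCl range of 183 to 227 lay inside the control range of 176 to 262. SUC2, the 1 phloem marker, was at 17.1 to 25.9 and 35.1 to 38.9 FPKM in 2x roots and at 21.6 to 25.0 and 33.2 to 45.5 in 4x roots, higher with NaCl without overlap in both. The 3 xylem markers summed to 42.3 to 46.7 and 36.1 to 43.0 FPKM in 2x roots and to 40.3 to 46.2 and 42.8 to 47.0 in 4x roots. The 6 green tissue markers summed to 117 to 174 and 126 to 237 FPKM in 2x roots, and to 63.9 to 110 and 157 to 242 in 4x roots, where they did not overlap. The part of these markers in the changes of FIT and bHLH39 was not tested.

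The calls rest on values close to the 2-fold line. FIT in 2x roots was not called with library-size scaling or in any of the 3 limma settings. The call of FIT in 2x roots was lost by the fold when 2x control replicate 2 (-0.90) or 3 (-0.99) or 2x NaCl replicate 1 (-0.93) or 2 (-0.91) was left out, with adjusted p of 0.0142 to 0.0301, and its value ranged from -1.21 to -0.90. That of bHLH39 in 4x roots was lost without 4x control replicate 3 (-0.83; adjusted p = 0.070) or 4x NaCl replicate 2 (-0.87; adjusted p = 0.0926), and by the fold alone without any of the 6 libraries of 2x roots, when the adjusted p was 0.0142 to 0.0259. For bHLH38 in the average, leaving out 2x control replicate 2 or 3, 2x NaCl replicate 2 or 3, 4x control replicate 1 or 2, or 4x NaCl replicate 2 or 3 ended the call, with values of -1.15 to -0.93. In 2x roots bHLH39 was called without 2x control replicate 1 (-1.09) or 2 (-1.04) or 2x NaCl replicate 3 (-1.03), and bHLH38 without 2x NaCl replicate 1 (-2.02) or 4x NaCl replicate 1 (-1.48) or 3 (-1.49). In the average, bHLH39 was called without 7 of the 12 libraries (2x control 1 and 2, 2x NaCl 3, 4x control 1 and 2, 4x NaCl 1 and 3). Without 4x NaCl root replicate 1, S8H was called lower in 2x roots (-1.27; adjusted p = 0.0181), in 4x roots (-1.81; adjusted p = 0.0178) and in the average (-1.54; adjusted p = 0.00100), and bHLH100 in the average (-1.51; adjusted p = 0.0443).

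**Figure D2:**
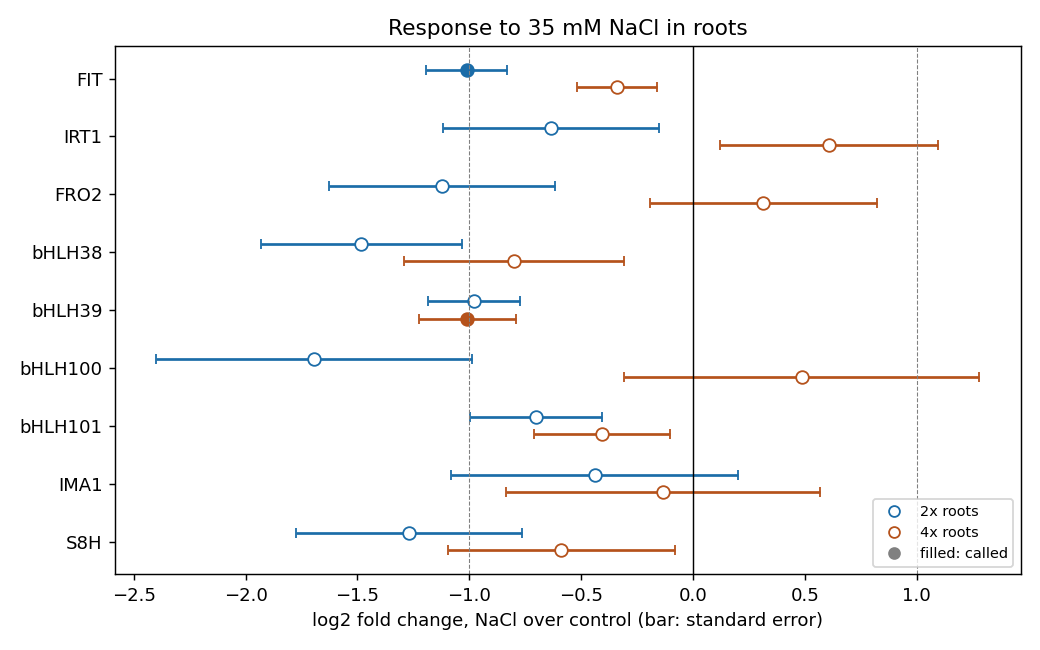
log2 fold change of NaCl over control for the 9 members tested in roots, with its standard error, blue for 2x and brown for 4x roots; filled points were called and dashed lines mark a fold of 2. FIT in 2x roots (-1.01) and bHLH39 in 4x roots (-1.01) are filled, and IRT1, FRO2 and bHLH100 are positive in 4x roots, where they are negative without replicate 1 of 4x NaCl.

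The effect of ploidy on NaCl was tested as an interaction, and it was called for 0 of 9 members by edgeR, as for 0% of all genes. At an unadjusted p under 0.05 there was 1 member, FIT, against 6.22% of all genes, and DESeq2 and limma on log2(FPKM + 1) called 0 too. The interaction of FIT was 0.67 (SE 0.25; adjusted p = 0.742), that of bHLH100 2.18 (SE 1.07; adjusted p = 0.802), that of FRO2 1.44 (SE 0.71; adjusted p = 0.802) and that of IRT1 1.24 (SE 0.69; adjusted p = 0.825). Without replicate 1 of 4x NaCl these were 0.37 for bHLH100, 0.58 for FRO2 and 0.46 for IRT1 (adjusted p = 0.985 or more). The response to NaCl was thus not shown to differ between ploidies for any member.

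Without NaCl, all 10 members had a lower mean FPKM in 4x than in 2x roots, but none of the 9 tested passed. bHLH38 (1.96 to 2.35 against 3.36 to 4.68 FPKM) and bHLH100 (0.370 to 0.870 against 1.54 to 2.10) did not overlap, 2 of 9 tested members, where 11.1% of all genes were lower without overlap. The log2 difference of 4x from 2x was -0.85 (SE 0.43; adjusted p = 0.393) for bHLH38, -1.54 (SE 0.71; adjusted p = 0.340) for bHLH100, -0.93 (SE 0.49; adjusted p = 0.416) for IRT1, -0.99 (SE 0.50; adjusted p = 0.399) for FRO2 and -0.28 (SE 0.18; adjusted p = 0.510) for FIT. All 9 tested members had a negative value, with a median of -0.44 beside -0.01 for all genes. The 2x control root libraries are also the control for NaCl in 2x roots, so these comparisons are not independent. edgeR called 0 of 9, DESeq2 and limma on log2(FPKM + 1) 0 as well, and 1 had an unadjusted p under 0.05, where 0.993% and 14.6% of all genes did. That 1 was bHLH100, which is also 1 of the 2 without overlap. bHLH100 was tested because it was high in 2x control roots, so neither count can be read as a ploidy difference on its account. The epidermis and root hair markers were higher in 4x roots, at 124 to 142 FPKM in sum against 98.6 to 113, and their part was not tested.

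With NaCl, FIT was 0.39 (SE 0.18; adjusted p = 0.334) higher in 4x on the log2 scale and bHLH39 -0.36 (SE 0.22; adjusted p = 0.466), with bHLH39 at 2.91 to 4.26 FPKM in 4x and 4.66 to 5.06 in 2x roots. bHLH39 was the 1 of 9 members whose groups did not overlap, where 19.9% of all genes were lower in 4x without overlap. edgeR called 0 of 9 in NaCl roots (0.124% of all genes), with 1 at an unadjusted p under 0.05 (14.9% of all genes), and DESeq2 and limma called 0. Averaged over NaCl, edgeR called 0 of 9 as well (0.672% of all genes), with 1 member at an unadjusted p under 0.05 (22.2% of all genes). That member was bHLH39, at -0.34 (SE 0.15; adjusted p = 0.198). DESeq2 and limma called 0 there too.

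Over the 12 root libraries, FRO2 followed IRT1 closely. Pearson's r of log2(FPKM + 1) was 0.960 and Spearman's rho 0.909 (permutation p = 1e-05, the smallest that 100000 permutations can give, and 8e-05, or 8e-05 and 0.00064 adjusted over 8 relations). Without the 2 libraries farthest from the median of IRT1, which were 4x NaCl replicates 1 and 3, r was 0.934, and r of the deviations from the group means was 0.989. The library with the highest IRT1 was also that with the highest FRO2 in all 4 groups. S8H had r = 0.667 and rho = 0.587 with IRT1 (permutation p = 0.0176 and 0.0486, adjusted 0.0706 and 0.195), r = 0.436 without those 2 libraries and 0.826 in the deviations. The relation of S8H therefore does not pass the adjustment. FIT had r = 0.357 and rho = 0.238 (permutation p = 0.252 and 0.458, adjusted 0.394 and 0.610), r = 0.325 without the 2 libraries and 0.451 in the deviations. The 5 others had r between -0.330 (IMA1) and 0.576 (bHLH100), with adjusted permutation p of 0.134 or more. The permutations shuffled all 12 libraries freely, without regard to group or replicate number. Their p-values therefore treat the libraries as interchangeable, which the 4 groups do not assure. A group of 3 libraries is too small for an r of its own.

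**Figure D3:**
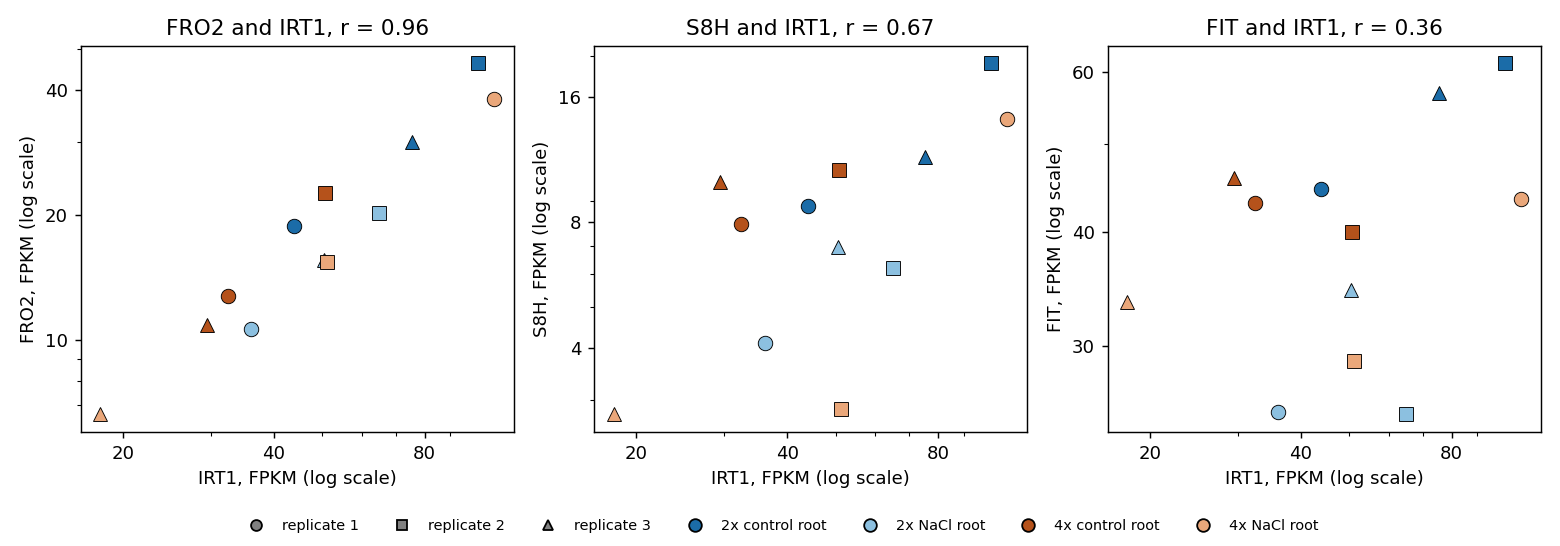
FRO2, S8H and FIT against IRT1 in the 12 root libraries, both axes in FPKM on a log scale; color gives the group and the symbol the replicate. FRO2 rises with IRT1 through all libraries (r = 0.960), S8H less closely (r = 0.667) and FIT with wide scatter (r = 0.357).

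In shoots the members were low, and what was seen there came mostly from Ib genes in single libraries. bHLH101 had 1.12, 1.11 and 6.94 FPKM in 2x control, 0.500, 0.250 and 7.92 in 2x NaCl, 0.370, 1.49 and 3.04 in 4x control and 0.370, 0.480 and 1.23 in 4x NaCl shoots. bHLH100 had 0.120, 0.490 and 2.90 FPKM in 2x control, 0, 1.72 and 10.4 in 2x NaCl, 0, 3.68 and 1.57 in 4x control and 0.610, 0 and 0.370 in 4x NaCl shoots. IMA1 had 0.280, 0.360 and 4.51 FPKM in 2x control, 0.600, 1.76 and 6.28 in 2x NaCl, 0.400, 1.61 and 2.77 in 4x control and 1.44, 1.72 and 2.53 in 4x NaCl shoots. Replicate 3 held the highest bHLH101 and IMA1 in all 4 groups, and the 2x libraries of that number were above all others. bHLH38 and bHLH39 were highest there as well, at 0.960 and 0.730 FPKM in 2x control and 2.62 and 1.26 in 2x NaCl replicate 3. FIT (0.300 to 1.98 FPKM) and FRO2 (0.0700 to 1.01) stayed low in every shoot library. IRT1 was at 0 counts in 8 and S8H in 7 of 12 shoot libraries, with at most 6 and 2 counts. MYB72 had at most 2 counts.

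**Figure D4:**
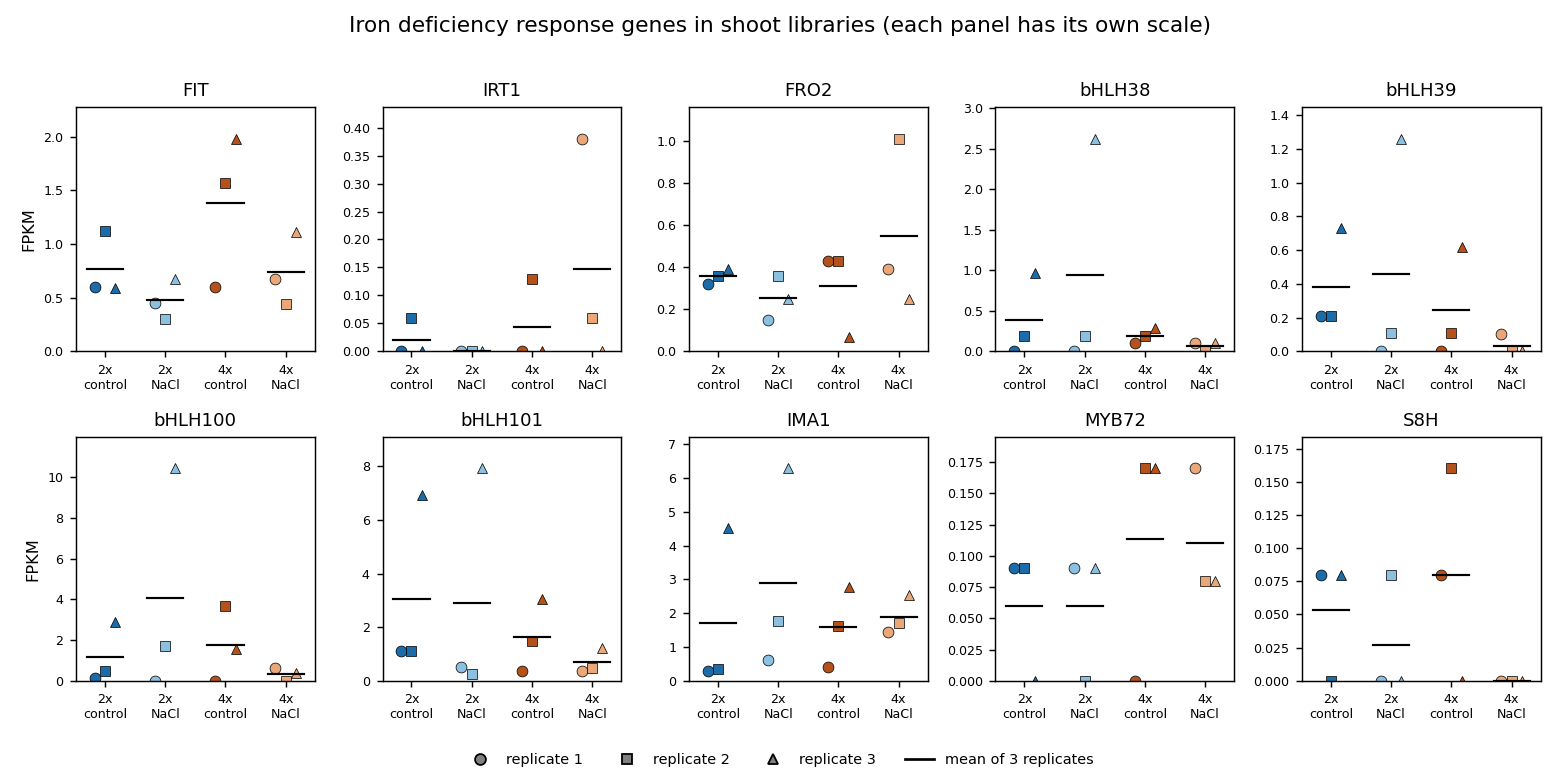
FPKM of the 10 members in the 12 shoot libraries, with 1 panel per gene, each on its own linear scale from 0; the symbols are replicates 1 to 3 and the bar is the mean of 3 replicates. Replicate 3 of 2x control and 2x NaCl (triangles) stands above the other libraries for bHLH38, bHLH39, bHLH101 and IMA1.

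No member was called in shoots by edgeR, DESeq2 or limma, and the groups of each tested member overlapped. Of all 19174 genes, 1367 were higher and 1039 lower in 4x without overlap in control, and 1656 and 265 in NaCl. With NaCl, 1615 were higher and 2775 lower without overlap in 2x, and 1819 and 875 in 4x. With 5 members, overlap in all of them is no result about the members. Of the 5 tested members (FIT, FRO2, bHLH100, bHLH101 and IMA1), 0 were called between ploidies in control (0.0104% of all genes), between ploidies in NaCl (0.0104%), with NaCl in 2x (0%), with NaCl in 4x (0.0104%), in the interaction (0%), between ploidies on average (0.0261%) and with NaCl on average (1.51%). At an unadjusted p under 0.05 there were 0 members in the first 6 of these, where all genes gave 9.08%, 3.89%, 17.6%, 12.4%, 2.91% and 10%, and 1, FIT, in the last, where all genes gave 25.7%. FIT had a log2 fold change of -0.80 (SE 0.36; adjusted p = 0.188) with NaCl on average. bHLH100 differed by -3.62 (SE 1.65; adjusted p = 0.993) between ploidies in NaCl, and by -1.53 (adjusted p = 0.999) without 2x NaCl shoot replicate 3. With the replicate number as a block, which pairs the shoot libraries, 0 of 5 members were called in each of these comparisons, while the genes called with NaCl rose from 0 to 431 in 2x, from 2 to 183 in 4x and from 290 to 647 on average, and those called between ploidies on average from 5 to 21.

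Between organs, FIT, IRT1, FRO2, S8H and bHLH39 were higher in roots in every condition. IRT1 was at least 388-fold higher in roots in 2x control, 197-fold in 4x control and 266-fold in 2x NaCl, against a floor of 3 counts a shoot library, and in 4x NaCl shoots it had 6, 1 and 0 counts. S8H was at least 53.4-fold higher in 2x control, 38.8-fold in 4x control, 23.4-fold in 2x NaCl and 26.8-fold in 4x NaCl roots, where its counts were 171, 34 and 34. All such bounds, here and below, use counts scaled by library total and not by TMM. That scaling put the median of all genes 0.51 to 0.74 higher in roots on the log2 scale, against 0.02 to 0.06 with TMM. For FIT the log2 difference was 5.60 (SE 0.33; adjusted p = 6.65e-12) in 2x control and 4.45 to 5.21 in the others. FRO2 was higher by 5.94 (SE 0.68; adjusted p = 1.61e-07) in 2x control and by 4.65 to 5.24 in the others, with 3.79 (adjusted p = 7.63e-06) in 4x NaCl without root replicate 1. bHLH39 was higher by 4.00 (SE 0.63; adjusted p = 1.15e-05), 4.29 and 2.73 in 2x control, 4x control and 2x NaCl, and at least 11.4-fold in 4x NaCl. It passed the filter only through its root libraries, so its p-values between organs are not support on their own. Without shoot replicate 3 of the group compared, bHLH39 was higher by 4.84 in 2x control and by 5.55 in 2x NaCl. FIT and FRO2 had reads in every shoot library, so their difference rests on no bound.

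The other Ib genes and IMA1 were not called in every condition. bHLH38 too passed the filter only through its root libraries, so its p-values between organs are not support on their own. bHLH38 was higher in roots in 2x control by 2.78 (SE 0.88; adjusted p = 0.00917), or 4.67 (adjusted p = 0.00284) without 2x control shoot replicate 3, at least 7.17-fold in 4x control and at least 4.27-fold in 4x NaCl, and its log2 difference was 0.01 (SE 0.86; adjusted p = 0.995) in 2x NaCl, or 3.07 (adjusted p = 0.0235) without 2x NaCl shoot replicate 3. Its call in 4x control was lost without 4x control shoot replicate 1 (adjusted p = 0.0673), and that in 4x NaCl without 4x NaCl root replicate 1 (adjusted p = 0.0993) or any of the 3 shoot libraries (0.0504 to 0.0726). bHLH100 was lower in roots than in shoots in 2x NaCl, by -3.32 (SE 1.21; adjusted p = 0.0208), but by -1.21 (adjusted p = 0.466) without 2x NaCl shoot replicate 3 and -2.87 (adjusted p = 0.0723) without 2x NaCl root replicate 3, and limma on log2(FPKM + 1) gave -1.01 (adjusted p = 0.167). bHLH101 differed by -0.11 (SE 0.79; adjusted p = 0.910) and IMA1 by -0.69 (SE 0.87; adjusted p = 0.499) in 2x control, with overlapping libraries. Without 2x control shoot replicate 3 these were 1.35 (adjusted p = 0.207) and 1.21 (adjusted p = 0.340). IMA1 in 2x NaCl was at -1.81 (SE 0.85; adjusted p = 0.0683), and at -0.58 (adjusted p = 0.625) without 2x NaCl shoot replicate 3. It was called without 2x control shoot replicate 3 (-1.81; adjusted p = 0.0366), 2x NaCl root replicate 1 (-2.91; adjusted p = 0.0224) or 2x NaCl shoot replicate 1 (-2.27; adjusted p = 0.0256).

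In numbers, 6 of 9 tested members were called higher in roots in 2x control, where 22.3% of all 21338 genes were, 6 in 4x control (21.7%), 5 in 2x NaCl (22.3%) and 6 in 4x NaCl (22.2%), and 1, bHLH100, was called lower in 2x NaCl, where 21.6% were. In this fit IRT1, S8H, bHLH38 and bHLH39 passed the filter only through their root libraries. The filter thus favoured their calls, and these counts do not show that the members as a whole lean to roots. In 2x control 4763 genes were higher in roots and 4526 lower, and 7177 and 3503 when scaled by library size alone. The splits were 4638 and 4694 against 6704 and 3650 in 4x control, 4762 and 4618 against 8363 and 3273 in 2x NaCl, and 4735 and 4603 against 6743 and 3546 in 4x NaCl. The counts of members given above were called in the same direction under either scaling. edgeR called 0 of 9 members for a different NaCl response in roots and shoots, as did DESeq2 and limma, beside 1.63% of all genes (170 higher and 178 lower, or 209 and 146 scaled by library size), with 0 at an unadjusted p under 0.05 (22.3% of all genes). For a different ploidy effect it also called 0, as the others did, beside 0.00469% of all genes, with 0 at an unadjusted p under 0.05 (7.31%).

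The wider pathway was read from 6 lists. Of the uptake and coumarin list, 1 of 9 tested genes fell with NaCl in 2x roots (1.81% of all genes) and the same gene in 4x roots (1.6%), and none rose, with a median of -0.46 and -0.12 beside 0.02 and -0.01 for all genes. This was F6'H1 (AT3G13610), which starts scopoletin synthesis and so acts ahead of S8H. F6'H1 had 109, 125 and 136 FPKM in 2x control and 73.5, 31.6 and 35.8 in 2x NaCl roots, and 168, 146 and 216 in 4x control and 67.4, 36.1 and 44.1 in 4x NaCl roots. All NaCl values lay below all control values in both ploidies, and F6'H1 fell by 1.48 (SE 0.29; adjusted p = 0.00934) and 1.90 (SE 0.30; adjusted p = 0.00340). IRT2 (AT4G19680), a transporter related to IRT1, was higher in 4x roots on average, by 1.17 (SE 0.22; adjusted p = 0.0107). IRT2 had 1.76, 1.74 and 1.13 FPKM in 2x control, 1.76, 1.53 and 1.06 in 2x NaCl, 3.76, 2.35 and 2.14 in 4x control and 4.13, 4.76 and 2.53 in 4x NaCl roots, and the 2x and 4x libraries did not overlap. limma on log2(FPKM + 1) gave 0.75 (adjusted p = 0.0230), short of the fold. IRT1 did not take this pattern: its ploidy difference on average was -0.31 (SE 0.34; adjusted p = 0.630).

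Of the other reductases, 1 of 4 tested in roots fell with NaCl in each ploidy, where 1.81% of all genes in 2x and 1.6% in 4x roots did. It was FRO4 (AT5G23980), a relative of FRO2 that shares reads with FRO5, so its separate value is uncertain. FRO4 had 16.6, 28.3 and 41.1 FPKM in 2x control, 9.48, 8.81 and 15.3 in 2x NaCl, 27.6, 36.9 and 58.4 in 4x control and 14.6, 15.5 and 21.3 in 4x NaCl roots. It fell by 1.43 (SE 0.34; adjusted p = 0.0223) in 2x and by 1.31 (SE 0.34; adjusted p = 0.0373) in 4x roots. In 2x roots the call of FRO4 was lost without 2x control replicate 2 (-1.42) or 3 (-1.09) or 2x NaCl replicate 1 (-1.31) or 2 (-1.27), at adjusted p of 0.0657 to 0.0917. In 4x roots it was lost without 2x control replicate 2 (-1.29), 4x control replicate 2 (-1.36) or 3 (-0.95) or 4x NaCl replicate 1 (-1.20) or 2 (-1.23), at adjusted p of 0.0592 to 0.155, and limma on log2(FPKM + 1) gave -1.16 (adjusted p = 0.0586).

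**Figure D5:**
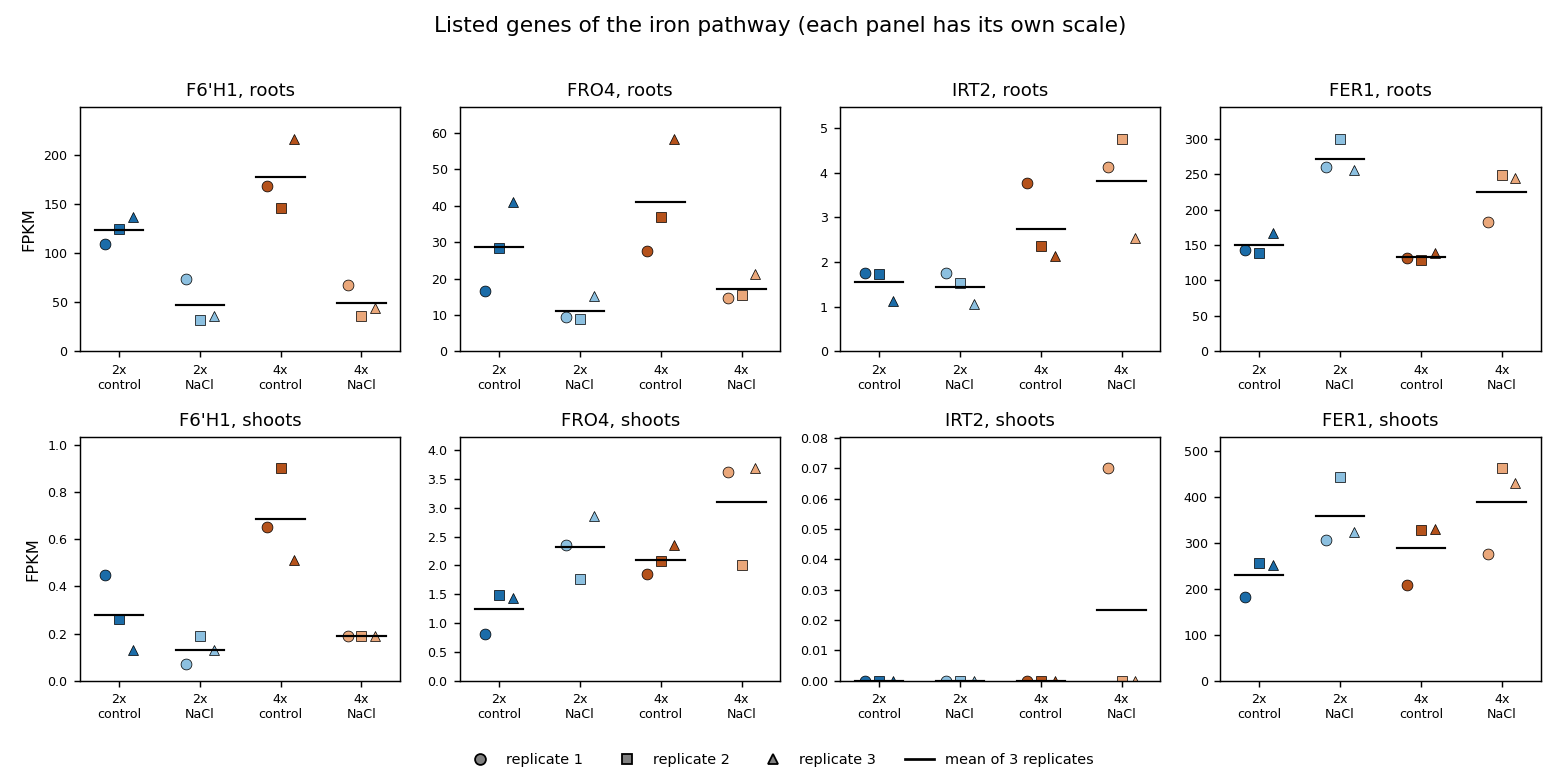
FPKM of F6'H1, FRO4, IRT2 and FER1 in root libraries (top) and shoot libraries (bottom), each panel on its own linear scale from 0; the symbols are replicates 1 to 3 and the bar is the mean of 3 replicates. F6'H1 and FRO4 are lower with NaCl in roots of both ploidies, IRT2 is higher in 4x than in 2x roots and FER1 is higher with NaCl in roots.

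In shoots 0 of 6 uptake and coumarin genes and 0 of 5 reductases were called without the block. The regulators, the chelation and transport genes, the vacuolar transporters and the ferritins had no called gene for ploidy or NaCl in roots (11, 8, 9 and 4 tested) or, without the block, in shoots (12, 10, 7 and 3 tested). With the replicate block, which pairs the shoot libraries, FRO6 and FRO7 fell with NaCl in 2x shoots (log2 fold changes of -1.20 and -1.47; adjusted p = 0.0487 and 0.0285) and on average (by 1.24 and 1.31; adjusted p = 0.00737 and 0.00646). These reductases are close relatives of each other that may share reads, and FRO7 had 29.8, 24.4 and 7.63 FPKM in 2x control and 9.88, 6.31 and 3.92 in 2x NaCl shoots. All values of FRO7, here and between organs, join the transcripts AT5G49740.1, AT5G49743.1 and AT5G49746.1. With the block, the nicotianamine synthases NAS1, NAS3 and NAS4 fell in 2x shoots (by 1.34, 1.29 and 1.24; adjusted p = 0.0241, 0.0213 and 0.0295), and NAS1 and NAS3 on average (by 1.19 and 1.14; adjusted p = 0.00548 and 0.00396). PYE, a bHLH regulator of iron homeostasis, rose in 2x shoots with the block, by 1.149 (adjusted p = 0.00952), from 4.11, 6.88 and 8.38 FPKM to 10.7, 14.1 and 15.7. No other listed gene was called with the block in shoots. All 4 ferritins, the iron stores of plastids and mitochondria, had positive values with NaCl in roots, with medians of 0.43 in 2x and 0.28 in 4x roots. FER1, chosen after its values were seen, had 139 to 167 FPKM in 2x control and 256 to 300 in 2x NaCl roots and 129 to 139 and 183 to 249 in 4x roots, with log2 fold changes of 0.78 (adjusted p = 0.00297) and 0.70 (adjusted p = 0.00717), past the p and short of the fold. Between organs in 2x control, the extremes of the lists were as follows. CYP82C4, a hydroxylase of the coumarin branch, was at least 206-fold higher in roots, NAS2, a nicotianamine synthase, by 8.07 on the log2 scale, FRO5 by 8.74, IREG2, a vacuolar metal transporter, at least 39.4-fold and FER2 by 2.41. FRO7, the chloroplast reductase, was at least 203-fold lower in roots, NAS3 at least 52.4-fold, AT2G30766 at least 25.8-fold, FER4 by -2.58 and ZIF1 by -2.12. AT1G74770 was higher in roots by 6.04, and BGLU42 had the lowest value of its list at -0.46, short of the fold.

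Genes outside the list were ranked by how their levels followed the members. Correlation with the mean of z-scored log2(FPKM + 1) of FIT, IRT1, FRO2 and S8H over 12 root libraries was highest for FD3 (r = 0.913), AT5G38340 (0.903), AT1G55550 (0.897), AT1G51980 (0.894) and AT5G48590 (0.894), of 20230 genes compared. For bHLH38, bHLH39, bHLH100, bHLH101 and IMA1 in roots these were AT4G09340 (0.902), AT5G20400 (0.902), ORG1 (0.894), TOPP3 (0.888) and GPAT7 (0.883). In shoots, with bHLH100, bHLH101 and IMA1 and 19169 genes, they were AT5G05250 (0.911), ORG1 (0.908), AT2G14247 (0.894), GRP3S (0.862) and AT5G01420 (0.839). ORG1 was among the 5 in both organs, at 17.3 to 25.5 FPKM in roots and 20.6 to 75.6 in shoots. These are the top values among all genes compared and are a description, since the points share libraries and depth.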

How the data were processed

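RNA of roots and shoots was enriched with oligo(dT) and read as single-end reads, and the authors aligned them to the TAIR10 build using HISAT and Bowtie2, with RSEM for the estimates of abundance (versions not given in the sources used here). For each library the authors deposited expected counts per gene, which carry no normalization, and FPKM, which RSEM scales by transcript length and depth. A gene absent from a file was given 0. The deposited lengths were not used in a test.

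Expected counts were rounded and tested in edgeR 4.0.16 (R 4.3.3) with TMM scaling and its quasi-likelihood test, in 1 model per organ with a mean for each of 4 groups, or of all 24 libraries for organs, with at least 10 counts in at least 3 libraries. P-values were adjusted over all genes tested by the Benjamini-Hochberg method, and a call needed an adjusted p under 0.05 and a fold of at least 2. Standard errors are the size of the log2 fold change over the square root of F. Bounds use a floor of 3 counts in each library of a group, and counts scaled by library total alone. Alternatives were DESeq2 1.42.0, limma 3.58.1 on log2(FPKM + 1) and log2(FPKM + 0.1), scaling by library size, no filter, only the compared groups, adjusted p alone, a replicate block and each library left out. Same-numbered libraries deviated together from their group means in shoots (correlation 0.129 to 0.792 over 18 pairs), which pairs them, but not in every pair in roots (-0.0194 to 0.511). No source says that a number marks a shared day or batch, so p-values measure only the spread between these libraries, which may be technical. The fit was tested on simulated data.

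Members and lists were chosen with earlier results of these data known. The genes named are the 10 members, every listed gene called for ploidy or NaCl within an organ, the listed gene with the largest positive and negative organ difference in 2x control, and the 5 genes most like each module. FER1 falls outside this rule and was added after its values were seen. Gene names were matched to TAIR10.1 (24621 identifiers), and promoter windows were read from it. No promoter or protein table was used, so windows come from the genome and no protein is shown. Precision is set by 3 replicates a group.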

Additional observations from a re-analysis of the deposited data

Results flagged for a closer look

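FRO4, a listed reductase that shares reads with FRO5, responded to NaCl differently in roots and shoots by the test of that difference: -2.10 on the log2 scale (SE 0.35; adjusted p = 0.00296 by edgeR's quasi-likelihood test, over 21338 genes). Averaged over ploidies FRO4 fell by 1.37 (SE 0.24; adjusted p = 0.00197) with NaCl in roots and had a log2 fold change of 0.73 (SE 0.19; adjusted p = 0.0560) in shoots. With the replicate block, which pairs the shoot libraries, edgeR gave 0.72 (adjusted p = 0.0304) in shoots, past the p and short of the fold. In shoots FRO4 was at 0.810, 1.48 and 1.43 FPKM in 2x control and 2.36, 1.77 and 2.85 in 2x NaCl, and at 1.85, 2.08 and 2.36 in 4x control and 3.62, 2.01 and 3.68 in 4x NaCl. The summed epidermis and root hair markers were 98.6 to 113 FPKM in 2x control and 84.1 to 91.4 in 2x NaCl roots, and their part in the root response was not tested. The difference between organs was called for 0 of 9 tested members.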

How the results depend on the processing

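The number of members called with NaCl in 2x roots, 1 with edgeR and TMM, was 2 by adjusted p alone, 2 by DESeq2, 2 with the replicate block, and 0 with library-size scaling, limma on log2(FPKM + 0.1) and limma on log2(FPKM + 1) with no filter. With the filter, limma on log2(FPKM + 1) called 1 as well, but this was bHLH38 and not FIT. In 4x roots it was 1, and 0 with library-size scaling, no filter on low counts, only the compared groups, and all 3 limma settings. In the average over ploidies it was 1, 3 by adjusted p alone, and 0 with limma on log2(FPKM + 1) with or without the filter. Leaving out 1 library gave 0 to 3 calls in 2x roots, 0 to 2 in 4x roots and 0 to 4 in the average. The cause was not tested, except that adjusted p alone drops the fold threshold. All other counts of called members stayed within 1.5 times under every alternative. With the replicate block, bHLH38 was called in 2x roots (-1.55; adjusted p = 0.0244), and the block changed no other call of a member. Among listed genes in roots it added IRT2 between ploidies in NaCl (1.47; adjusted p = 0.00764) and CYP82C4 with NaCl in 2x (-1.41; adjusted p = 0.0289). Of 3723 values of members under an alternative, 44 lost and 28 gained a call, 0 reversed, and 162 with no call in either changed sign. Library-size scaling put the median of all genes at 0.51 to 0.74 on the log2 scale between organs, against 0.02 to 0.06 with TMM. Over all genes, counts of calls moved by over 1.5 times as follows. Between ploidies in control roots 201 became 317 with the block, 126 with limma on log2(FPKM + 1) and 102 with no filter too. Between ploidies in NaCl roots 25 became 82 with DESeq2, 96 with the block, 13 with library-size scaling, 12 with limma on log2(FPKM + 0.1) or the compared groups alone, and 6 with limma on log2(FPKM + 1) with or without the filter. With the same limma setting and with no filter too, NaCl gave 361 and 327 of 570 in 2x roots, 294 and 236 of 482 in 4x roots and 291 and 283 of 600 on average, and ploidy on average gave 60 and 52 of 136. The interaction in roots went from 0 to 13 with DESeq2, 5 with the block and 1 with library-size scaling or limma. In shoots DESeq2 gave 64 and 12 between ploidies in control and NaCl (2 each), 257 with NaCl in 2x (0), 229 in 4x (2), 2 in the interaction (0), 42 between ploidies on average (5) and 556 with NaCl on average (290). There limma on log2(FPKM + 1) gave 9, 4 and 128 with NaCl in 2x, 4x and on average, and 3, 4 and 86 with no filter. With log2(FPKM + 0.1) it gave 161 on average. Without the filter edgeR gave 3 in 2x shoots, limma gave 3 between ploidies on average, and the compared groups alone gave 1, 0 and 1 between ploidies in control, in NaCl and with NaCl in 4x. Between organs, the NaCl response went from 348 to 527 with the block, and the ploidy effect from 1 to 36 with DESeq2, 3 with the block, and 10 and 9 with limma with and without the filter. Adjusted p alone gave 468, 51, 1951, 1328, 1022 and 3843 in roots for ploidy in control, ploidy in NaCl, NaCl in 2x, NaCl in 4x, ploidy on average and NaCl on average, 964 for NaCl in shoots on average, 14003 to 14324 between organs and 1094 for the NaCl response between organs. In roots each of the 12 libraries correlated best with its own number, which is a hint from the data, not the design. Low counts limit the Ib genes, IMA1 and MYB72, and 3 replicates limit the rest.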
